A study of Mus musculus with 12 samples.

Results

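The mitosis and spindle genes described here are 40 genes whose products drive a cell from the end of interphase through chromosome segregation to cytokinesis. They were chosen by name, as a list of mitotic cyclins, kinases, checkpoint proteins, kinetochore proteins, spindle motors, condensin subunits and cytokinesis factors. A probe belonged to the list when the gene name in the scanner files, or the current symbol reached through an alias or a RefSeq accession, was a listed name. All 40 genes were on the array, out of 27670 genes in all, and all 40 were kept among the 19174 genes tested. They had 73 probes, of which 68 were kept, and 19 of the genes had more than 1 kept probe. The reported probe, the brightest of a gene, was well above background on all 12 arrays for all 40 genes.

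The experiment followed gene expression after knockdown of Ino80, which encodes the motor subunit of the INO80 chromatin remodeller, in J1 cells, a mouse embryonic stem cell line. The cells received a lentivirus with a hairpin against Ino80 (shIno80) or with a non-targeting hairpin (shNT), and total RNA was collected at day 2, day 4 or day 6, listed as 48, 96 and 144 hours. Each of the 6 groups had 2 single-colour arrays, listed as biological replicates. All groups were J1 cells placed in M15 medium for the infection, after maintenance in ESGRO medium. The labels name a single shIno80 agent, and another Ino80 hairpin or a rescue was not analysed here. The sources used here do not describe how the paired cultures were prepared, so a p-value reflects the variation seen between these samples, which may be partly technical. Values are log2 signals relative to the 75th percentile of the array, and a log2 fold change is shIno80 minus shNT, given ± SE with n = 2 arrays per group. A gene passed the test when its limma p-value, adjusted by Benjamini-Hochberg over all 19174 genes, was under 0.05.

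The value table and the scanner file attachments disagreed on the sample of 6 of the 12 arrays. Scanner files from positions 2 and 3 of each of the 3 slides were exchanged between shIno80 and shNT relative to the columns of the value table. Samples were taken from the value table, within whose groups arrays correlated across genes at r = 0.9915 to 0.9946, against 0.928 to 0.9878 for all other pairs. This choice was made with those correlations and the Ino80 signal known. Under the scanner file attachments, no mitosis or spindle gene passed the test on any day, and 2, 7 and 0 of all genes passed at days 2, 4 and 6 (654, 259 and 446 at an unadjusted limma p under 0.05). Ino80 itself had log2 signals of 0.56 and 0.85 in shIno80 against 2.72 and 2.67 in shNT at day 2, −0.29 and 0.12 in shIno80 against 2.26 and 2.16 in shNT at day 4, and −0.23 and −0.01 in shIno80 against 1.89 and 2.05 in shNT at day 6. Ino80 was thus lower on every shIno80 array, by 3.96-fold, 4.91-fold and 4.25-fold at days 2, 4 and 6 (limma adjusted p = 0.000779, 2.55e-05 and 2.62e-05). The share of probes well above background ran between 62.35% and 69.68% per array, with 0 to 4 probes saturated. Each slide held the 4 arrays of a day, so slide and day cannot be told apart, and the position on the slide went with the group.

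Markers of cell state were measured on the same arrays. The 10 pluripotent cell markers examined were Pou5f1, Nanog, Sox2, Klf4, Klf2, Esrrb, Zfp42, Tbx3, Nr5a2 and Tfcp2l1. They were all well above background in every group, which shows detection and not the state of the cells. Their summed linear signal, in multiples of the array's 75th percentile, was 297.7 to 313.3 in shIno80 against 426.6 to 452.1 in shNT at day 2. At day 4 it was 145.2 to 147.6 in shIno80 against 392.8 to 396.8 in shNT, and at day 6 it was 143.5 to 153.2 in shIno80 against 409.9 to 454.5 in shNT. All 10 fell at days 4 and 6, and 4 of 10 at day 2. Of 9 trophectoderm markers (Cdx2, Eomes, Hand1, Krt7, Krt8, Krt18, Gata3, Tfap2c and Esx1), 8 rose at days 4 and 6, while Tfap2c was lower at day 2 (−1.89 ± 0.27) and day 6 (−1.44 ± 0.27) and did not pass at day 4. Their summed signal at day 6 was 510.3 to 533 in shIno80 against 25.81 to 29.23 in shNT (150.7 to 162.4 in shIno80 against 13.03 to 13.99 in shNT at day 4, and 9.325 to 12.14 in shIno80 against 7.782 to 9.64 in shNT at day 2). Of 12 fibroblast markers listed, which feeder cells would carry, 10 were measured. The list was Col1a1, Col1a2, Col3a1, Thy1, Dcn, Lum, Postn, Fap, Pdgfra, Pdgfrb, Vim and S100a4. At days 4 and 6 each, 5 (50%) rose and 3 (30%) fell. Among all genes, 20.9% and 21% rose and 21.3% and 29.5% fell. The median log2 fold change of these markers was 0.54 at day 4 and 1.34 at day 6, and 8 or 9 of them were well above background in those groups. Their summed signal was 32.34 to 35.78 in shIno80 against 44.85 to 49.29 in shNT at day 2, 17.81 to 19.49 in shIno80 against 26.61 to 30.2 in shNT at day 4, and 11.95 to 12.89 in shIno80 against 15.39 to 16.16 in shNT at day 6. These shifts went with the falls described next, and their part in them was not tested.

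Entry into mitosis depends on the kinase CDK1 bound to B-type cyclins, switched on by CDC25 phosphatases and assisted by Polo-like and Aurora kinases. Condensin and topoisomerase II compact and untangle the chromosomes, kinetochores built on the histone variant CENP-A attach them to spindle microtubules, and the spindle checkpoint holds back the anaphase promoting complex until every chromosome is attached. Embryonic stem cells divide fast and carry high levels of these transcripts. In human cells, many such genes are switched on late in the cycle through promoter elements named the cell cycle genes homology region, bound by the MuvB complex with MYBL2 or FOXM1, and CCAAT boxes, bound by NF-Y.

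Promoter sequence, taken from RefSeq on GRCm38.p6 as 250 bases before to 50 bases after the start site, was matched for 33 of the 40 genes. Aurkb, Ccna2, Cdc25c, Incenp, Kif20a, Smc4 and Tpx2 were not matched. The homology region was searched as TTTGAA or as the variant TTCGAA, and the CCAAT box by the letters of its name, all on either strand. The motifs do not overlap in the 6 promoters printed below, which were chosen after the values of their genes were seen. Cenpa (chr5:30666636-30666935, plus strand) and Smc2 (chr4:52438971-52439270, plus strand) are shown because they passed as lower on all 3 days. Bub1b (chr2:118597961-118598260, plus strand) and Ccnb1 (chr13:100786437-100786736, minus strand) are shown as later falls, Kif23 (chr9:61946750-61947049, minus strand) as a gene that passed on no day, and Anln (chr9:22389157-22389456, minus strand) as the 1 gene that rose. Each is written 5′ to 3′ on the strand of the gene, with motif matches in capitals, so that a homology region on the other strand reads TTCAAA and a CCAAT box on the other strand reads ATTGG.
Cenpa: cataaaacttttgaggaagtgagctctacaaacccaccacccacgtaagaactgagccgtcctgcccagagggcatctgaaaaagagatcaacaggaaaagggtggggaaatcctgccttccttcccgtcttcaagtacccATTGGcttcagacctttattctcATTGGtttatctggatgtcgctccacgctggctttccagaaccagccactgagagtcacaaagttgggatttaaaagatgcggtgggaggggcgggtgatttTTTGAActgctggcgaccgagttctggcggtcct
Smc2: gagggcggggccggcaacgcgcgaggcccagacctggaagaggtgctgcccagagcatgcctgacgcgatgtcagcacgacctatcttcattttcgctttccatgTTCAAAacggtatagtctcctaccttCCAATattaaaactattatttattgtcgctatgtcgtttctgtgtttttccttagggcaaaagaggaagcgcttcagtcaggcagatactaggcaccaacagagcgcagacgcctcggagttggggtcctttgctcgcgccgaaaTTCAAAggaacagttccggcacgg
Bub1b: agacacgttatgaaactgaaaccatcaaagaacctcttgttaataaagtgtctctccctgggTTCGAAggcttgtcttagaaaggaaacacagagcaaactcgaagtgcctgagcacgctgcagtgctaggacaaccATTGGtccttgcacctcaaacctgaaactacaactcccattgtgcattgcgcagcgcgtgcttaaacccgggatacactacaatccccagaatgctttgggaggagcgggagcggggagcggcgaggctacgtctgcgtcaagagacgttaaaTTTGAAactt
Ccnb1: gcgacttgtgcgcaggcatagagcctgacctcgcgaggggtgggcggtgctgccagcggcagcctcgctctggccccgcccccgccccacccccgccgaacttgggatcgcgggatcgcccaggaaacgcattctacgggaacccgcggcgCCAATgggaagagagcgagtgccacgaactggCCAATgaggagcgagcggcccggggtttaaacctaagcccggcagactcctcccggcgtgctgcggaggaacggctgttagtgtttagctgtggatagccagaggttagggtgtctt
Kif23: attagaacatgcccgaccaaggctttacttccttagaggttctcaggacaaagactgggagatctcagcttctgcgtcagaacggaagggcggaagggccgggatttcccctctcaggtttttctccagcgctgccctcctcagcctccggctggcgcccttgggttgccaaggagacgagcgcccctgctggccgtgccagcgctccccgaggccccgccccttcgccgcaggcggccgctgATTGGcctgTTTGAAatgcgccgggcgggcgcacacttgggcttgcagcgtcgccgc
Anln: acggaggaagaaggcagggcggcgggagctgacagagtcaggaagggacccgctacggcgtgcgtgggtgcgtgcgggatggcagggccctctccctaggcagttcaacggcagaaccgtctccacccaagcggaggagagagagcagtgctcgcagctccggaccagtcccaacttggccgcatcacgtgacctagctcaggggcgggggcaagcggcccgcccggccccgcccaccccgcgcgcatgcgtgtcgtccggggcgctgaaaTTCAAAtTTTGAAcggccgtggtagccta

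The Cenpa promoter had 2 CCAAT matches, whose first bases lay at −109 and −86 from the start site, and 1 homology region match at 16. Smc2 had 1 CCAAT match at −119 and homology region matches at −145 and 26. Bub1b had 1 CCAAT match at −113 and homology region matches at −188 and 40. Ccnb1 had CCAAT matches at −99 and −67 and no homology region match in this window. Kif23, which did not pass on any day, had a CCAAT match at −7 and a homology region match at 2. Anln had 2 homology region matches, at 21 and 28, and no CCAAT match in this window.

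Among the 33 matched genes, 24 (72.7%) held a homology region match, against 21.7% of the 27025 genes with a promoter in the table. A CCAAT match was present in 24 (72.7%) as well, against 41.1% of all genes, and 21 (63.6%) held both, against 8.61%. Of the 18 matched genes that passed as lower at day 4 or day 6, 15 held the homology region and 13 held both motifs. Of the other 15, 9 held the homology region and 8 held both. These are letter matches, not binding sites.

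At day 2, 2 of the 40 mitosis and spindle genes passed the test, Cenpa and Smc2, both lower in shIno80, and none passed as higher. An unadjusted limma p under 0.05 was reached by 6 of the 40, 3 of them lower, beside 5063 of all 19174 genes. Among all genes, 6.21% passed as lower and 6.29% as higher at day 2, and 2 of 40 is 5%. At day 4, 15 of 40 (37.5%) were lower and none higher, against 21.3% lower and 20.9% higher among all genes. At that day 16 of 40 had an unadjusted limma p under 0.05, all 16 lower, beside 9525 of all 19174 genes in either direction. At day 6, 18 of 40 (45%) were lower and 1 (2.5%) was higher, against 29.5% lower and 21% higher among all genes. On these arrays of RNA from whole cultures, fewer cells in mitosis and less RNA per cell cannot be told apart.

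Most of the falls were small. The median log2 fold change of the 40 genes was −0.04 at day 2, −0.27 at day 4 and −0.41 at day 6, beside medians of 0.02, −0.05 and −0.14 over all genes. At days 4 and 6 the direction of this median held under each scaling tried, but not under the scanner file attachments, where it was 0.01 on both days. At day 2 its sign changed with the scaling. With normexp background correction the day 4 median of the 40 genes was −0.172, beside −0.193 over all genes. The members that passed as lower by at least 2-fold were 1, 2 and 3 at days 2, 4 and 6, beside 1.83%, 7.12% and 10.7% of all genes. Both shIno80 arrays lay below both shNT arrays for 10, 28 and 31 of the 40 genes at days 2, 4 and 6, beside 21.5%, 40.1% and 45.3% of all genes, and above them for 4, 3 and 4 (24.9%, 35% and 31.6% of all genes). The median SD between the 2 arrays of a group was 0.18 at day 2, 0.079 at day 4 and 0.056 at day 6.

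**Figure D1:**
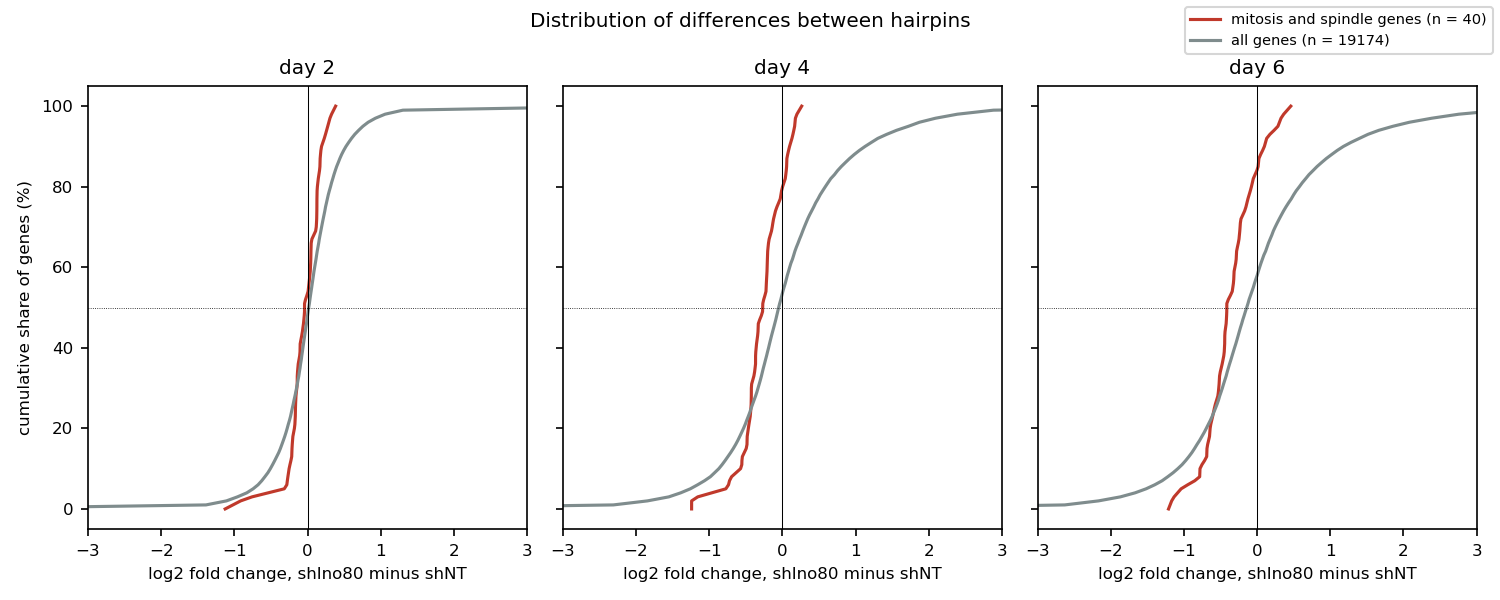
Cumulative share of genes (vertical axis, %) against the log2 fold change of shIno80 minus shNT (horizontal axis) at days 2, 4 and 6, for the 40 mitosis and spindle genes (red) and all 19174 genes tested (grey). The red curve is steeper than the grey one and lies left of 0 over most of its height at days 4 and 6, where its median is −0.27 and −0.41.

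The day 4 count depended on single arrays. Leaving out shIno80 replicate 2 of day 4 left 5 genes lower (12.5%, against 15.3% of all genes), and leaving out shNT replicate 1 of day 4 left 6 (15%, against 16.3%). Leaving out other arrays in turn gave 11 to 16. At day 6 the median of the 40 genes stayed between −0.414 and −0.343 whichever array was left out, beside −0.219 to −0.058 over all genes. With the value table, 11 genes were lower at day 4 (27.5%, against 18.8% of all genes) and 9 at day 6 (22.5%, against 17.9%). With normexp background correction 2 genes were lower at day 4 (5%, against 4.46% of all genes) and 5 at day 6 (12.5%, against 8.97%).

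**Figure D2:**
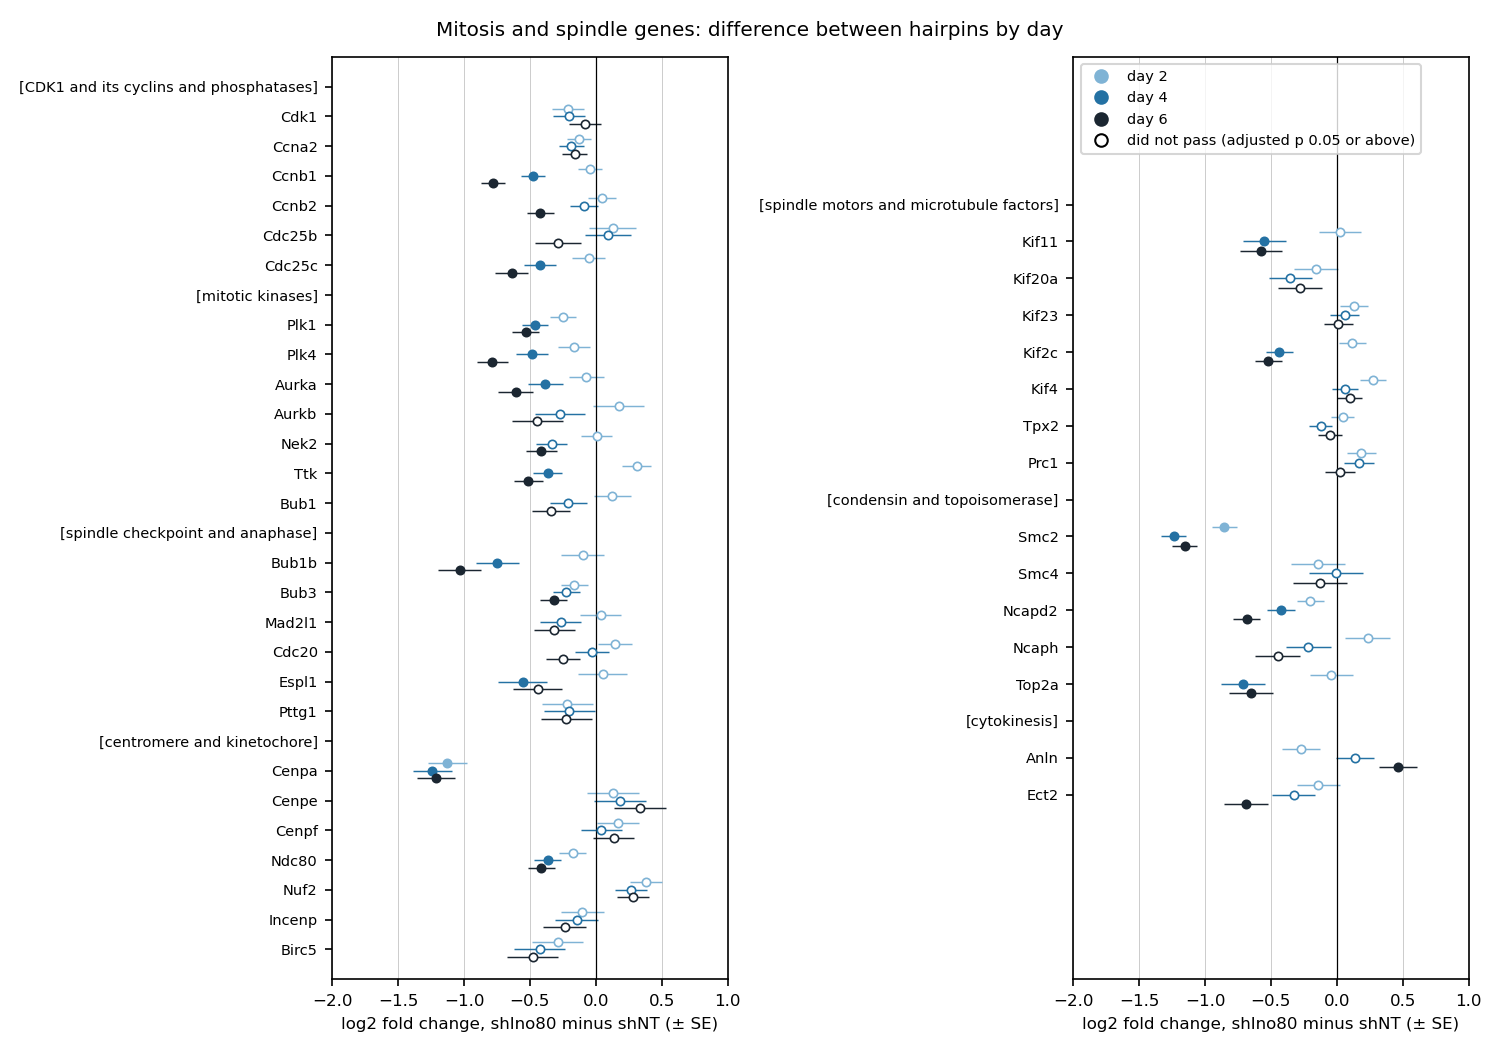
Log2 fold change (horizontal axis, shIno80 minus shNT, ± SE) of each of the 40 genes by functional class at days 2, 4 and 6. Filled points passed the limma test at an adjusted p under 0.05. Cenpa and Smc2 lie at or below −0.85 on all 3 days, Bub1b reaches −1.03 at day 6, and Anln is the only filled point right of 0.

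The largest and earliest falls were in the gene for CENP-A, the histone H3 variant that marks the centromere, and in Smc2, the SMC subunit shared by both condensin complexes. The log2 signal of Cenpa was 1.22 and 1.51 in shIno80 against 2.32 and 2.66 in shNT at day 2, 1.39 and 1.34 in shIno80 against 2.58 and 2.63 in shNT at day 4, and 1.40 and 1.22 in shIno80 against 2.54 and 2.50 in shNT at day 6. Every shIno80 array lay below every shNT array of its day. Cenpa was lower 2.18-fold at day 2 (−1.13 ± 0.14, limma adjusted p = 0.00313), 2.36-fold at day 4 (adjusted p = 0.000259) and 2.31-fold at day 6 (adjusted p = 0.000222). It had 1 kept probe.

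Smc2 had log2 signals of 1.63 and 1.60 in shIno80 against 2.47 and 2.47 in shNT at day 2, 1.34 and 1.25 in shIno80 against 2.61 and 2.46 in shNT at day 4, and 1.33 and 1.38 in shIno80 against 2.50 and 2.52 in shNT at day 6. The groups did not overlap on any day. The gene was lower 1.81-fold at day 2 (−0.85 ± 0.09, limma adjusted p = 0.00166), 2.36-fold at day 4 (adjusted p = 3.05e-05) and 2.23-fold at day 6 (adjusted p = 2.76e-05). All 4 kept Smc2 probes passed as lower on all 3 days, with log2 fold changes of −1.07 to −1.25 at day 6. The day 2 calls of Cenpa and Smc2 were lost when the 4 arrays of day 2 were fitted alone and with normexp correction, with log2 fold changes of −1.13 and −0.85 on the slide alone and −0.80 and −0.59 with normexp.

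Of the 5 condensin and topoisomerase genes, 3 (60%) fell at days 4 and 6, beside 21.3% and 29.5% of all genes. Ncapd2, a condensin I subunit, fell by 0.42 ± 0.10 at day 4 and by 0.68 ± 0.10 at day 6 on the log2 scale, on all 3 of its kept probes. Ncaph, the kleisin subunit of condensin I, was at −0.45 ± 0.17 at day 6 and did not pass (limma adjusted p = 0.0567). Smc4, the partner of SMC2 in condensin, was at −0.14, −0.01 and −0.13 at days 2, 4 and 6, each ± 0.20, and did not pass on any day. Top2a encodes topoisomerase II alpha, which untangles sister chromatids. Its log2 signal was 3.26 and 2.86 in shIno80 against 3.29 and 2.91 in shNT at day 2, 2.09 and 1.96 in shIno80 against 2.80 and 2.68 in shNT at day 4, and 2.05 and 2.11 in shIno80 against 2.69 and 2.77 in shNT at day 6. The groups interleaved at day 2 and were apart afterwards. Top2a fell 1.64-fold at day 4 (−0.71 ± 0.17, limma adjusted p = 0.00869) and 1.57-fold at day 6 (adjusted p = 0.0111). Its dimmest kept probe passed as lower at day 4 (−0.76) and not at day 6 (−0.52), while another passed on both days.

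**Figure D3:**
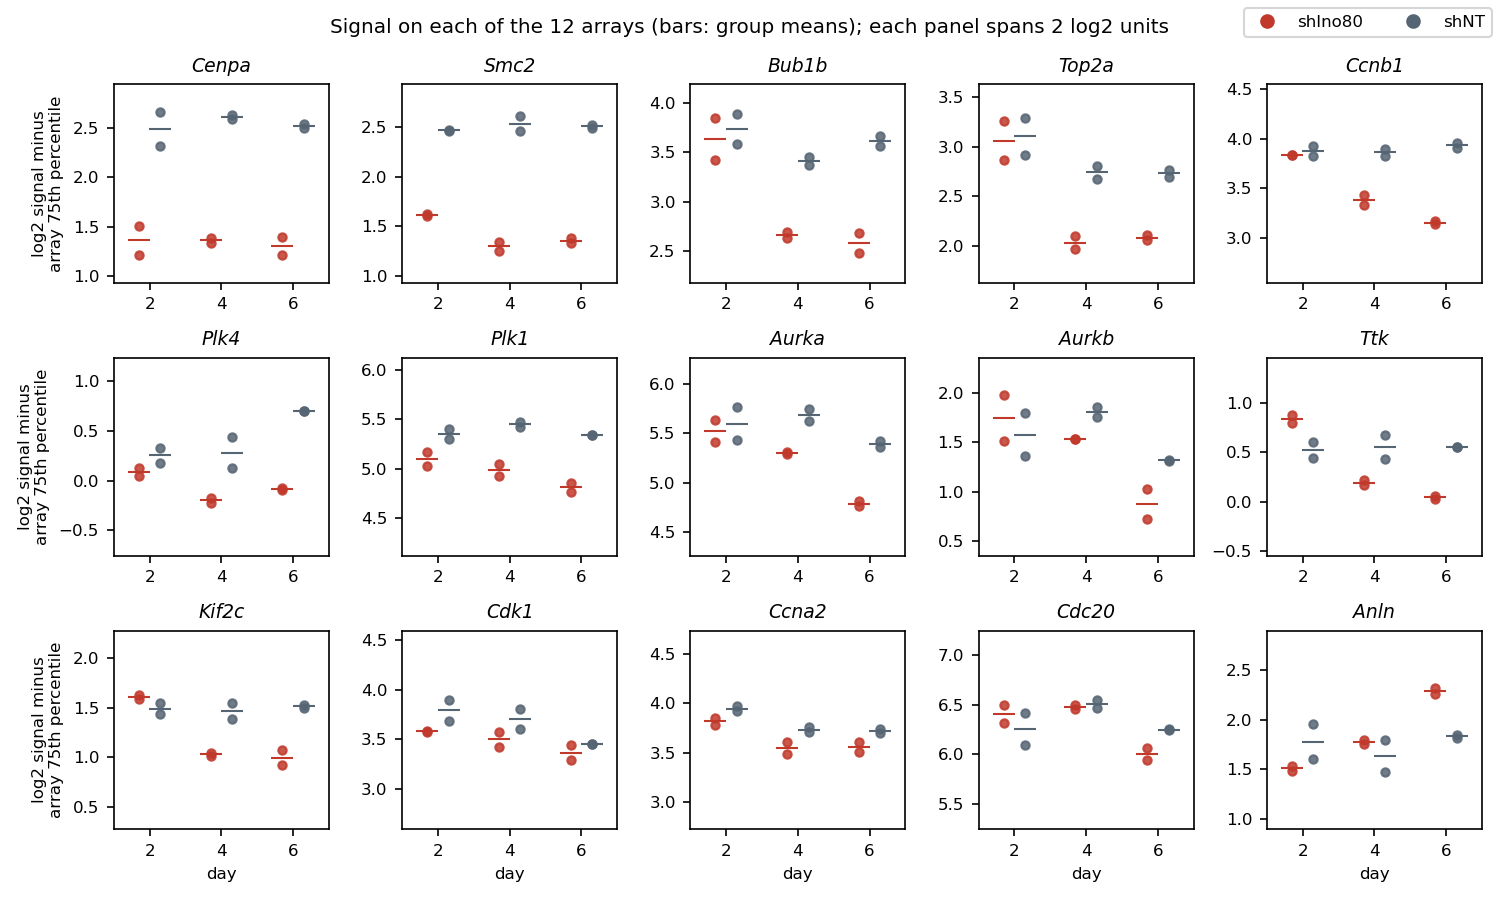
Log2 signal minus the array's 75th percentile (vertical axis) on each of the 12 arrays by day (horizontal axis), for the 15 genes given array by array, with shIno80 in red left of shNT in grey and bars at group means. For Cenpa, Smc2, Plk1, Plk4, Cdk1 and Ccna2, shIno80 lies below shNT at every day, and Bub1b, Top2a and Ccnb1 separate from day 4. For Ttk and Kif2c, shIno80 lies above shNT at day 2 and below it later, and for Anln it lies above at day 6.

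Among the spindle checkpoint and anaphase genes, 2 of 6 (33.3%) were lower at days 4 and 6 each, which at day 6 is near the 29.5% of all genes. Bub1b encodes BUBR1, a checkpoint protein that inhibits the anaphase promoting complex. It had log2 signals of 3.84 and 3.42 in shIno80 against 3.88 and 3.59 in shNT at day 2, 2.69 and 2.63 in shIno80 against 3.45 and 3.37 in shNT at day 4, and 2.48 and 2.68 in shIno80 against 3.56 and 3.66 in shNT at day 6. The arrays overlapped at day 2, and both shIno80 arrays were the lowest at days 4 and 6. Bub1b fell 1.68-fold at day 4 (−0.75 ± 0.16, limma adjusted p = 0.00621) and 2.04-fold at day 6 (−1.03 ± 0.16, adjusted p = 0.000961). Bub3, the partner of BUB1 and BUBR1, fell by 0.32 ± 0.10 on the log2 scale at day 6, on 1 of its kept probes. Espl1, which encodes the cohesin-cutting protease separase, fell by 0.55 ± 0.18 at day 4 and was at −0.44 ± 0.18 at day 6 (limma adjusted p = 0.0793).

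Mad2l1 (MAD2, the core checkpoint effector) and Pttg1 (securin, the inhibitor of separase) did not pass on any day, at −0.31 ± 0.16 and −0.23 ± 0.19 at day 6. Cdc20, the activator of the anaphase promoting complex, did not pass either. Its log2 signal was 6.32 and 6.50 in shIno80 against 6.10 and 6.42 in shNT at day 2, 6.46 and 6.50 in shIno80 against 6.47 and 6.55 in shNT at day 4, and 6.06 and 5.94 in shIno80 against 6.25 and 6.25 in shNT at day 6. The groups overlapped at days 2 and 4 and lay apart at day 6, where the log2 fold change was −0.25 ± 0.13.

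Of the 6 genes for CDK1, its cyclins and its phosphatases, 2 (33.3%) were lower at day 4 and 3 (50%) at day 6, beside 21.3% and 29.5% of all genes. Cdk1, the mitotic kinase itself, had log2 signals of 3.58 and 3.57 in shIno80 against 3.68 and 3.90 in shNT at day 2, 3.58 and 3.42 in shIno80 against 3.60 and 3.80 in shNT at day 4, and 3.44 and 3.29 in shIno80 against 3.45 and 3.45 in shNT at day 6. Its fold changes were −0.21, −0.20 and −0.08, each ± 0.12 on the log2 scale, and it passed on no day, although both shIno80 arrays were narrowly the lower pair each time. The other, dimmer kept Cdk1 probe passed as lower at day 4 only, at −0.52. Ccna2, the gene of cyclin A2, had log2 signals of 3.85 and 3.78 in shIno80 against 3.97 and 3.92 in shNT at day 2, 3.60 and 3.49 in shIno80 against 3.71 and 3.76 in shNT at day 4, and 3.50 and 3.61 in shIno80 against 3.69 and 3.74 in shNT at day 6. Both shIno80 arrays were the lower pair on each day, but the differences of −0.13, −0.19 and −0.16 (each ± 0.09) did not pass.

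Ccnb1, which encodes cyclin B1, the main mitotic partner of CDK1, did fall. Its log2 signal was 3.84 and 3.83 in shIno80 against 3.83 and 3.93 in shNT at day 2, 3.43 and 3.33 in shIno80 against 3.90 and 3.83 in shNT at day 4, and 3.13 and 3.17 in shIno80 against 3.90 and 3.96 in shNT at day 6. The arrays were level at day 2 and separate at days 4 and 6. Ccnb1 was lower 1.39-fold at day 4 (−0.48 ± 0.09, limma adjusted p = 0.00314) and 1.72-fold at day 6 (−0.78 ± 0.09, adjusted p = 0.000193), on all 3 kept probes. Cdc25c, a phosphatase that activates CDK1, fell by 0.42 ± 0.12 at day 4 and by 0.64 ± 0.12 at day 6 on the log2 scale. Its other kept probe passed as lower at day 6 (−0.45) and not at day 4 (−0.30). Ccnb2, the gene of cyclin B2, fell by 0.42 ± 0.10 at day 6 and was at −0.09 ± 0.10 at day 4. Cdc25b, another CDK1 phosphatase, was at −0.29 ± 0.18 at day 6 by its reported probe, which did not pass, while its 2 other kept probes passed as lower at −0.38 and −0.65.

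Of the 7 mitotic kinases, 4 (57.1%) fell at day 4 and 5 (71.4%) at day 6, beside 21.3% and 29.5% of all genes, with log2 fold changes of −0.21 to −0.48 at day 4 and of −0.34 to −0.78 at day 6 over all 7. Plk1, the Polo-like kinase of mitotic entry, had log2 signals of 5.03 and 5.17 in shIno80 against 5.30 and 5.40 in shNT at day 2, 5.05 and 4.93 in shIno80 against 5.42 and 5.47 in shNT at day 4, and 4.86 and 4.77 in shIno80 against 5.35 and 5.34 in shNT at day 6. Both shIno80 arrays were the lower pair on each day. Plk1 fell 1.38-fold at day 4 (−0.46 ± 0.10, limma adjusted p = 0.00593) and 1.45-fold at day 6 (adjusted p = 0.00232), and was at −0.25 ± 0.10 at day 2 (adjusted p = 0.15).

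Plk4, the kinase that starts centriole duplication, had log2 signals of 0.13 and 0.05 in shIno80 against 0.33 and 0.18 in shNT at day 2, −0.18 and −0.22 in shIno80 against 0.44 and 0.13 in shNT at day 4, and −0.09 and −0.07 in shIno80 against 0.70 and 0.70 in shNT at day 6. The gap was widest at day 6, where the shNT arrays were higher than on earlier days. Plk4 fell 1.40-fold at day 4 (−0.48 ± 0.12, limma adjusted p = 0.0116) and 1.72-fold at day 6 (−0.78 ± 0.12, adjusted p = 0.000821), and its other kept probe passed as lower on both days.

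Aurka encodes Aurora A, the kinase of centrosomes and spindle poles. Its log2 signal was 5.41 and 5.64 in shIno80 against 5.43 and 5.76 in shNT at day 2, 5.31 and 5.29 in shIno80 against 5.62 and 5.74 in shNT at day 4, and 4.81 and 4.76 in shIno80 against 5.36 and 5.42 in shNT at day 6. The arrays overlapped at day 2 and were apart later. Aurka fell 1.30-fold at day 4 (−0.38 ± 0.13, limma adjusted p = 0.048) and 1.52-fold at day 6 (−0.61 ± 0.13, adjusted p = 0.00556).

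Aurkb, the kinase of the chromosomal passenger complex, had log2 signals of 1.51 and 1.98 in shIno80 against 1.36 and 1.79 in shNT at day 2, 1.53 and 1.54 in shIno80 against 1.76 and 1.85 in shNT at day 4, and 1.02 and 0.73 in shIno80 against 1.32 and 1.32 in shNT at day 6. The groups overlapped at day 2 only, but the difference at day 6 (−0.44 ± 0.19) did not pass (limma adjusted p = 0.0883). The passenger subunits Incenp and Birc5 (survivin) did not pass on any day and stood at −0.24 ± 0.16 and −0.48 ± 0.19 at day 6.

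Ttk encodes MPS1, the kinase that starts checkpoint signalling at unattached kinetochores. It had log2 signals of 0.80 and 0.88 in shIno80 against 0.60 and 0.44 in shNT at day 2, 0.22 and 0.16 in shIno80 against 0.68 and 0.43 in shNT at day 4, and 0.03 and 0.06 in shIno80 against 0.55 and 0.55 in shNT at day 6. The shIno80 arrays were the higher pair at day 2 and the lower pair at days 4 and 6. The difference did not pass at day 2 (0.31 ± 0.11, limma adjusted p = 0.111) and was −0.37 at day 4 (adjusted p = 0.0276) and −0.51 at day 6 (adjusted p = 0.00503). Nek2, a centrosome-splitting kinase, fell by 0.41 ± 0.12 at day 6, and the checkpoint kinase Bub1 was at −0.34 ± 0.14 (limma adjusted p = 0.0778).

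Of the 7 spindle motors and microtubule factors, 2 (28.6%) were lower at days 4 and 6, near the shares of all genes (21.3% and 29.5%). Kif2c, a kinesin that depolymerises microtubules at kinetochores, had log2 signals of 1.62 and 1.59 in shIno80 against 1.54 and 1.44 in shNT at day 2, 1.05 and 1.01 in shIno80 against 1.55 and 1.39 in shNT at day 4, and 0.92 and 1.07 in shIno80 against 1.50 and 1.53 in shNT at day 6. It too was higher on the shIno80 arrays at day 2 and lower on them later. Kif2c fell 1.35-fold at day 4 (−0.44 ± 0.10, limma adjusted p = 0.00844) and 1.43-fold at day 6 (adjusted p = 0.00298). Kif11, the bipolar kinesin that separates spindle poles, fell by 0.55 ± 0.16 at day 4 and by 0.58 ± 0.16 at day 6 by its reported probe, while its other 2 kept probes did not pass. Kif20a, Kif23, Kif4, Prc1 and Tpx2, which act at the central spindle or in spindle assembly, passed on no day, with day 6 log2 fold changes of −0.28, 0.01, 0.10, 0.03 and −0.05.

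Of the 7 centromere and kinetochore genes, Cenpa and Ndc80 fell at days 4 and 6 (28.6%, near the shares of all genes) and the other 5 did not pass. Ndc80, the microtubule-binding subunit that gives its complex its name, fell by 0.37 ± 0.10 at day 4 and by 0.41 ± 0.10 at day 6 on the log2 scale. Nuf2, its direct partner, was at 0.38, 0.26 and 0.28 at days 2, 4 and 6, each ± 0.12, and did not pass. The large kinetochore proteins Cenpe and Cenpf stood at 0.34 ± 0.20 and 0.14 ± 0.16 at day 6. The 2 kept probes of Cenpf differed, since the dimmer one passed as lower at day 4 (−0.44) and day 6 (−0.38).

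The 2 cytokinesis genes went opposite ways at day 6. Ect2, the activator of RhoA at the division plane, fell by 0.69 ± 0.16 on the log2 scale. Anln encodes anillin, a scaffold of the contractile ring that also binds cortical actin. Its log2 signal was 1.49 and 1.53 in shIno80 against 1.95 and 1.61 in shNT at day 2, 1.75 and 1.79 in shIno80 against 1.80 and 1.47 in shNT at day 4, and 2.27 and 2.32 in shIno80 against 1.84 and 1.82 in shNT at day 6. The shIno80 arrays were the lower pair at day 2, within the shNT range at day 4 and the higher pair at day 6. Anln rose 1.38-fold at day 6 (0.46 ± 0.14, limma adjusted p = 0.027), and its other kept probe passed as higher too (0.56). This call was lost when any of the 4 day 6 arrays was left out, with median scaling, with normexp, with no filter on dim probes and under the scanner file attachments.

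Over the 3 days, 2 of the 40 genes were lower throughout, 14, those 2 among them, were lower at both day 4 and day 6, 1 (Espl1) at day 4 and not day 6, and 4 (Ccnb2, Ect2, Nek2 and Bub3) at day 6 and not day 4. A further 20 passed on no day, and Anln rose. The shares of all genes with the same combinations of days were not computed. Taken singly, days 4 and 6 had 21.3% and 29.5% of all genes lower. The difference between hairpins was compared between days in the same model. It was more negative at day 4 than at day 2 for 2 genes, Ttk (−0.68 ± 0.16) and Kif2c (−0.55 ± 0.14), which is 5% against 7.15% of all genes. No gene passed between day 6 and day 4 (1 had an unadjusted limma p under 0.05, and 2.24% of all genes passed as lower). Between day 6 and day 2, a comparison added after the values had been seen, 8 genes (20%) had a more negative difference at day 6 and Anln a more positive one, against 15.8% and 11.3% of all genes. Leaving out any of the 4 arrays of day 6 left 2 to 4 genes in place of 9, and leaving out shIno80 replicate 1 of day 2 left 5. The 9 became 0 with normexp or under the scanner file attachments, 3 with the value table, 4 with median scaling or with no filter on dim probes, and 20 with a replicate block. Between days 4 and 2, 0 genes passed without shIno80 replicate 1 of day 2, shNT replicate 2 of day 2, shNT replicate 1 of day 4 or either shIno80 array of day 4.

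Within shIno80, 16 of the 40 genes were lower at day 4 than at day 2 (18.1% of all genes), among them Top2a by 1.03, Bub1b by 0.97 and Kif11 by 0.80 on the log2 scale. None passed as higher (20.7% of all genes). From day 4 to day 6 in shIno80, 6 genes (15%) were lower, near the 17% of all genes. They were Ect2, Aurkb, Incenp, Aurka, Cdc20 and Ncapd2. Anln was higher (2.5%, against 8.2% of all genes). Within shNT, none of the 40 passed from day 2 to day 4 (6.73% of all genes lower and 7.64% higher; 4 of the 40 had an unadjusted limma p under 0.05). From day 4 to day 6 in shNT, Cenpe was lower, and Cdc25c and Plk4 were higher (8.78% and 7.84% of all genes). These time comparisons run across slides, and a slide effect cannot be told apart from the day.

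The 157 other measured mitosis genes, of 160 listed, were lower in 7, 58 and 71 cases at days 2, 4 and 6 (4.46%, 36.9% and 45.2%). They were higher in 4, 11 and 12 cases (2.55%, 7.01% and 7.64%), with medians of −0.03, −0.23 and −0.34. Among all genes, 6.21%, 21.3% and 29.5% were lower and 6.29%, 20.9% and 21% higher on those days. Of 33 other kinetochore and centromere genes, 2, 15 and 18 were lower at days 2, 4 and 6 (6.06%, 45.5% and 54.5%). The day 2 share is near that of all genes. At days 4 and 6, 2 each were higher (6.06%). Oip5, a Mis18 complex subunit needed to load new CENP-A, had log2 signals of 0.71 and 0.55 in shIno80 against 2.21 and 2.25 in shNT at day 6, 3.03-fold lower (−1.60 ± 0.11, limma adjusted p = 1.51e-05). It was lower at day 2 as well (−0.77, adjusted p = 0.00515), like Cenpa.

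Some genes of that list are named here after their values were seen. Mis18a, another gene of the Mis18 complex, fell by 0.65 ± 0.11 at day 6, while Hjurp, the CENP-A chaperone, was at −0.17 ± 0.12 and did not pass. Spc24, which sits in the same complex as Ndc80 and Nuf2, fell by 1.49 ± 0.11, and Spc25, its partner, was at −0.18 ± 0.09 and did not pass. Zwint, a kinetochore scaffold protein gene, rose by 0.65 ± 0.14.

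Of 28 other mitotic motors and spindle assembly genes, 13 (46.4%) were lower at day 4 and 16 (57.1%) at day 6. They included, named after their values were seen, 5 of the 8 augmin subunit genes at day 6, Haus1 (−1.20 ± 0.19), Haus2, Haus5, Haus7 and Haus8, which branch microtubules inside the spindle. Mki67, the common marker of proliferating cells, was at 0.49 ± 0.20 at day 6 and did not pass. The checkpoint, entry and exit list (23 genes) had 1, 5 and 7 lower and 1, 3 and 2 higher at days 2, 4 and 6, and the anaphase promoting complex (16 genes) had 1, 4 and 4 lower and 1, 0 and 0 higher. The lower shares at days 2, 4 and 6 were 4.35%, 21.7% and 30.4% for the checkpoint list and 6.25%, 25% and 25% for the anaphase promoting complex, near those of all genes (6.21%, 21.3% and 29.5%). For the checkpoint list the higher shares were 4.35%, 13% and 8.7%. They were 6.25%, 0% and 0% for the complex, beside 6.29%, 20.9% and 21% of all genes.

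**Figure D4:**
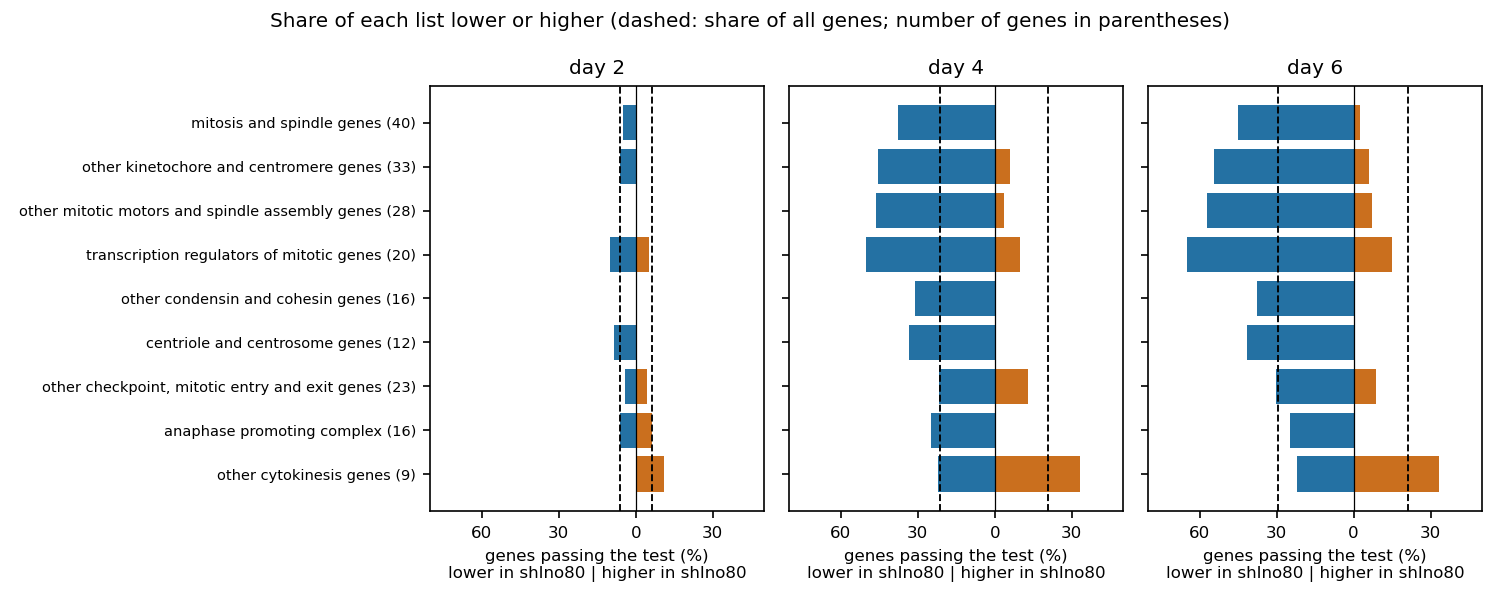
Percent of genes in each mitosis list that passed the limma test as lower (blue, left) or higher (orange, right) in shIno80 at days 2, 4 and 6, with dashed lines at the shares of all genes. The 40 mitosis and spindle genes reach 45% lower at day 6 beside 29.5% of all genes, and the transcription regulators reach 65%.

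Of 20 transcription regulators of mitotic genes, 2, 10 and 13 were lower at days 2, 4 and 6 (10%, 50% and 65%). They were higher in 1, 2 and 3 cases (5%, 10% and 15%). Among all genes, 6.21%, 21.3% and 29.5% were lower and 6.29%, 20.9% and 21% higher. Mybl2, which encodes B-MYB and works with MuvB at homology region promoters, had log2 signals of 3.44 and 3.88 in shIno80 against 5.24 and 5.47 in shNT at day 6. It was lower on both shIno80 arrays by 3.24-fold (−1.70 ± 0.20, limma adjusted p = 0.000204), and by 1.84 on the log2 scale at day 4. Foxm1, the forkhead activator of late cell cycle genes, moved the other way, with log2 signals of 1.88 and 1.87 in shIno80 against 0.74 and 0.85 in shNT at day 6. It rose 2.11-fold (1.08 ± 0.11, limma adjusted p = 1e-04). E2f2, an E2F family activator, was lower 2.95-fold at day 6 (−1.56 ± 0.21, limma adjusted p = 0.000406). Of the 5 MuvB core genes, named after their values were seen, Lin9, Lin37, Lin52 and Rbbp4 fell at day 6 by 0.72, 0.62, 1.24 and 0.56, and Lin54 was at −0.29 ± 0.14 and did not pass.

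**Figure D5:**
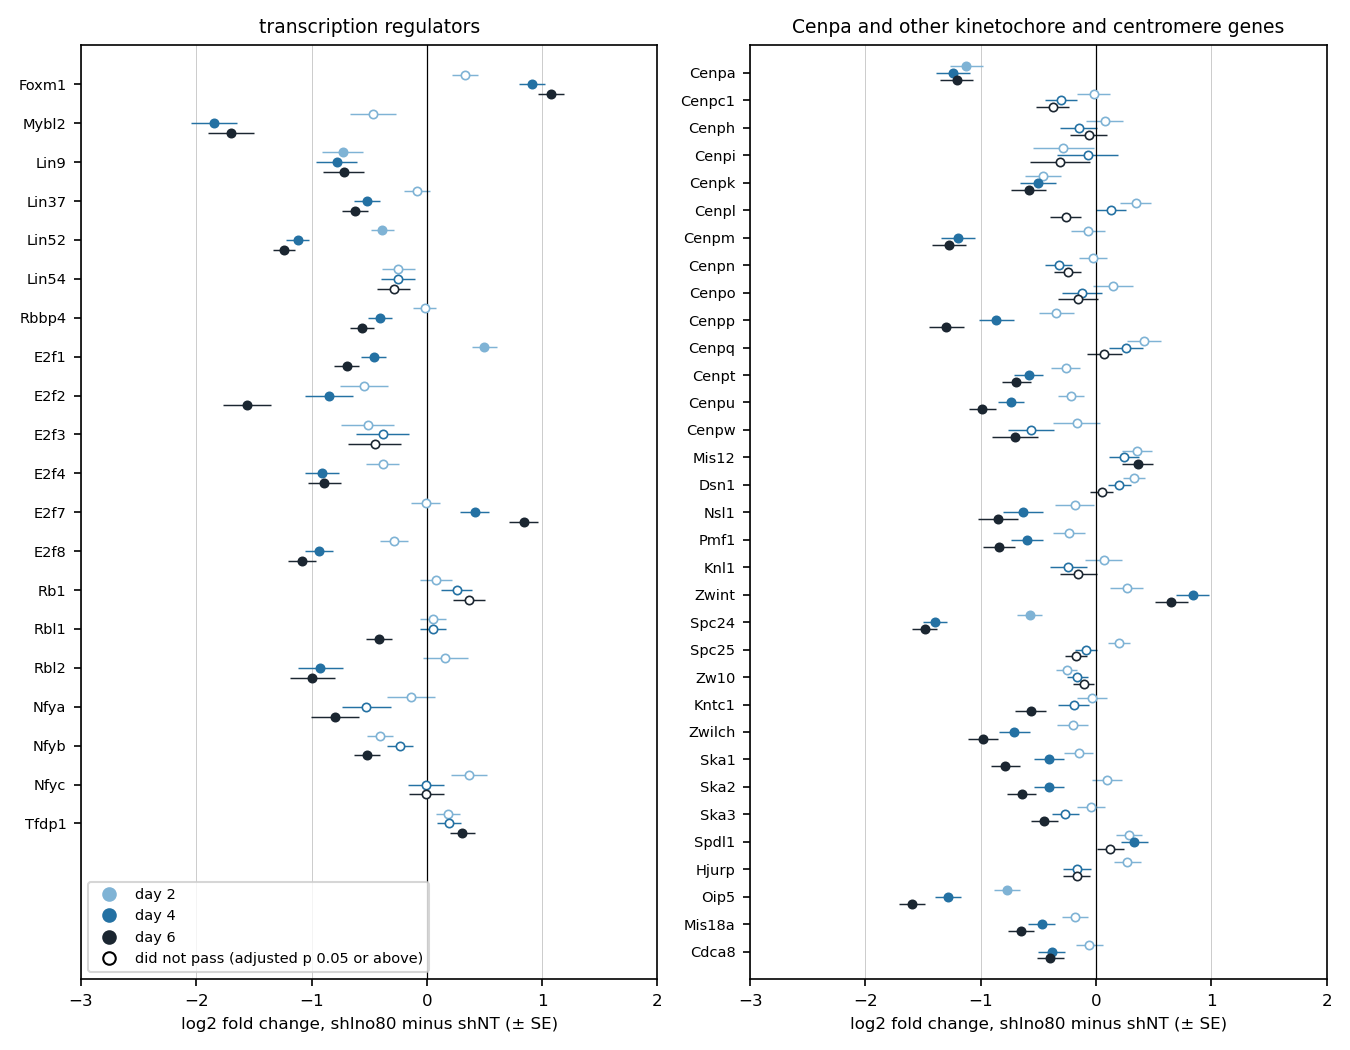
Log2 fold change (horizontal axis, shIno80 minus shNT, ± SE) of the 20 transcription regulators (left) and of Cenpa with the other kinetochore and centromere genes, 1 of which is not drawn (right), at days 2, 4 and 6, filled where the limma test passed. Mybl2 lies at −1.70 and Foxm1 at 1.08 at day 6, and Oip5 and Cenpa are among the genes already lower at day 2.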

How the data were processed

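Total RNA of 12 J1 cultures was measured on single-colour arrays. The deposited scanner files hold spot intensity from Agilent Feature Extraction 9.5.3.1, background-subtracted within each array and not scaled between arrays, per the file headers. The deposited value table is in log2, and each of its columns was 1 scanner file's mean intensity multiplied by a constant (relative tolerance 1e-06), which set the sample of each array. The origin of that constant is not stated in the labels or headers.

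The values used were log2 processed intensity less the 75th percentile of the same array, taken without control spots. Of 41174 probes, 125 were dropped for outlier or non-uniformity marks, and the 28642 kept were well above background in both replicates of some group. Probe names came from RefSeq tables of GRCm38.p6 (22951 by accession, 6659 by symbol, 3109 by older symbol, 8455 left as in the files). The brightest kept probe stood for a gene, and near-identical gene copies may share a probe. limma 3.58.1 in R 4.3.3 fitted 1 mean per group over the 12 arrays (6 residual and 2.19 prior degrees of freedom) and was tested on simulated data. The number of arrays limits the precision.

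Genes given array by array were Cdk1, Ccna2, Ccnb1, Plk1, Aurka, Aurkb, Cdc20, Top2a, the 4 largest falls and rises past the threshold on each day, genes called against the majority and those with the 3 largest changes between days. Of the other lists, the 3 largest falls and rises at day 6 were named. The members, lists and rules were chosen with earlier results of these data known. Alternatives were the scanner file attachments, the value table, normexp (offset 50), median scaling, quantile normalization, probe filters, probe means, a replicate block, single slides and leaving out each array.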

Additional observations from a re-analysis of the deposited data

Results flagged for a closer look

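The difference between hairpins (shIno80 minus shNT, log2) changed between days for 9 mitosis and spindle genes, by limma contrasts adjusted over 19174 genes. Day 2 to day 4, 5% of the members passed as more negative, against 7.15% of all genes. Day 2 to day 6, 20% passed as more negative and 2.5% as more positive, against 15.8% and 11.3% of all genes. From day 2 to day 4 the difference between hairpins moved by −0.68 for Ttk (adjusted p = 0.0235) and by −0.55 for Kif2c (adjusted p = 0.0357). From day 2 to day 6, a comparison added after the values were seen, it moved by −0.93 for Bub1b, −0.82 for Ttk, −0.74 for Ccnb1, −0.64 for Kif2c, −0.62 for Plk4, −0.58 for Cdc25c, −0.48 for Ncapd2 and −0.47 for Ccnb2, with adjusted p between 0.00434 and 0.0466. Anln moved by 0.73 (adjusted p = 0.0304). These calls were fragile. Leaving out 1 array at a time gave 0 to 3 genes from day 2 to day 4, with 0 without shIno80 replicate 1 of day 2 or day 4, shIno80 replicate 2 of day 4, shNT replicate 2 of day 2 or shNT replicate 1 of day 4. It gave 2 to 12 genes from day 2 to day 6, with 2 to 4 when an array of day 6 was left out and 5 without shIno80 replicate 1 of day 2. The 9 genes from day 2 to day 6 became 0 with normexp or under the scanner file attachments, 3 with the value table, 4 with median scaling or with no filter on dim probes, and 20 with a replicate block.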

How the results depend on the processing

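The numbers of mitosis and spindle genes lower in shIno80 (2, 15 and 18 at days 2, 4 and 6) and their medians (−0.041, −0.268 and −0.414) depended most on the sample record and on background correction. Under the scanner file attachments 0 genes passed on any day and 0 changed between days 2 and 4, and the medians were 0.126, 0.006 and 0.006. The log2 fold change of genes that had passed turned positive for Cenpa at day 2 (0.314), for Aurka (0.046) and Ncapd2 (0.028) at day 4, and at day 6 for Ccnb1 (0.047), Cdc25c (0.137), Plk4 (0.006), Aurka (0.007), Nek2 (0.079), Ttk (0.013), Bub1b (0.151), Ndc80 (0.042), Kif11 (0.046), Kif2c (0.087), Smc2 (0.038), Ncapd2 (0.04) and Top2a (0.066). That record mixes the arrays that the value table separates. No other alternative reversed a gene that had passed.

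With normexp, 0, 2 and 5 genes were lower and 0 were higher at day 6, with medians of 0.268 at day 2 and −0.172 at day 4. With the value table, 9 genes were lower and 5 higher at day 6 and 1 was higher at day 2, with medians of 0.021 at day 2 and −0.166 at day 6. Quantile normalization gave 1, 2 and 4 genes higher at days 2, 4 and 6, beside 1555, 4380 and 4440 of all 19174 genes, and medians of 0.034, −0.153 and −0.235. Median scaling gave 0 higher at day 6, beside 3508 of all 19174 genes, and medians of −0.413 and −0.506 at days 4 and 6. Fitting each slide alone left 0 lower at day 2, beside 0.0313% of all genes. Using all probes left 0 higher at day 6, beside 3672 of 27607 genes. The number of genes whose difference changed between days 2 and 4 (2) was 1 with the value table, median scaling or quantile normalization, 0 with normexp or with all probes, and 4 with probe means. The cause was not tested.

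Leaving out each array in turn gave 2 to 2, 5 to 16 and 13 to 21 genes lower at days 2, 4 and 6, 0 to 1, 0 to 1 and 0 to 2 higher, and medians of −0.091 to 0.057, −0.319 to −0.22 and −0.414 to −0.343. It gave 0 to 3 genes changed between days 2 and 4 and 0 to 0 between days 4 and 6. The day 2 median was positive without shNT replicate 2.

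The median over all genes was −0.05 and −0.142 at days 4 and 6, but −0.195 and −0.234 with median scaling, 0.059 at day 6 with the value table, and −0.301, −0.193 and 0.101 at days 2, 4 and 6 with normexp. The mitosis median minus that of all genes was −0.218 and −0.272 at days 4 and 6, −0.214 and −0.225 with the value table, −0.104 and −0.128 with quantile normalization, and 0.57, 0.022 and −0.526 at days 2, 4 and 6 with normexp. Of all calls, 49.5% were higher at day 4 (39.1% with median scaling) and 41.6% at day 6 (62% with the value table).

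The replicate numbers were shared between hairpins, but same-numbered arrays deviated together at r = 0.295, 0.117 and 0.083 at days 2, 4 and 6, so the numbers were not taken as pairs. A replicate block gave 2, 18 and 25 genes lower (5%, 45% and 62.5%), against 9.35%, 25.6% and 33.8% of all genes at days 2, 4 and 6. It gave 1 higher at day 2 and 3 at day 6, beside 2039 and 4613 of all 19174 genes. With it, 9 genes changed between days 2 and 4 and 20 between days 2 and 6, where the share of all genes was not computed.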

Other observations

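Outside the 40 genes, some genes of the chromosome structure and centrosome lists were lower too. They are named after their values were seen. Of 16 other condensin and cohesin genes, 5 (31.2%) were lower at day 4 and 6 (37.5%) at day 6, beside 21.3% and 29.5% of all genes, and none was higher. On the log2 scale at day 6, the condensin II subunit genes Ncapd3 (−1.03 ± 0.15) and Ncapg2 (−0.47 ± 0.17) were lower, as was the cohesin ATPase gene Smc3 (−0.47 ± 0.11), while its partner Smc1a was at 0.06 ± 0.11 and did not pass. Sgo1 and Sgo2a, the shugoshins that protect centromeric cohesin, fell by 0.53 ± 0.17 and by 0.57 ± 0.12. Of 12 centriole and centrosome genes, 1, 4 and 5 were lower at days 2, 4 and 6 (33.3% and 41.7% at days 4 and 6). Cep55, which acts at abscission, fell by 1.34 ± 0.09 at day 6 and had passed at day 2 (−0.59 ± 0.09). Stil, a centriole duplication factor that works with PLK4, was at 0.12 ± 0.19 and did not pass.

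Of 9 other cytokinesis genes, 3 (33.3%) were higher and 2 (22.2%) lower at days 4 and 6 each, beside 21% higher and 29.5% lower among all genes at day 6. Rock2, a kinase that contracts actomyosin, rose 3.57-fold at day 6, with log2 signals of −0.34 and −0.27 in shIno80 against −2.17 and −2.11 in shNT (1.84 ± 0.10, limma adjusted p = 4.07e-06). Pdcd6ip, which encodes the abscission and membrane-trafficking factor ALIX, rose 2.09-fold (1.06 ± 0.23, limma adjusted p = 0.00546). Racgap1, a subunit of the centralspindlin complex, fell by 0.47 ± 0.12, and Kif23, the other subunit, was at 0.01 ± 0.11 and did not pass.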
